A study of Mus musculus with 2 samples.

Results

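Light chain V genes are the gene segments Igkv (kappa, chromosome 6) and Iglv (lambda, chromosome 16) that encode most of the variable domain of immunoglobulin light chains. They were taken as every gene of GENCODE M21 (mouse, GRCm38) whose symbol begins with Igkv or Iglv and whose biotype is IG_V_gene. The annotation holds 103 such genes, and 100 of them had a row in the deposited table of 36980 named genes, 97 kappa genes of 18 families and 3 lambda genes. Igkv8-34, Igkv19-93 and Igkv20-101-2 had no row and are not analysed here. The study measured RNA of mouse pro-B cells, B cell precursors of the bone marrow, in 1 library of Setdb1 Δ/Δ cells and 1 library of Setdb1 C/C cells. The Setdb1 protein places methyl groups on lysine 9 of histone H3. Δ/Δ stands for deleted and C/C for undeleted alleles. Cells of both genotypes carried a bcl2 transgene and had been sorted and grown with interleukin 7 (5 ng/µl) for 4 days. The labels give no age, sex or strain of the mice and do not name what removed the alleles. Since each genotype is 1 library, the spread between replicates is unknown and nothing below carries a p-value.

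A light chain V gene typically has a short leader exon and a V exon, and carries its own promoter. Some members, such as Igkv3-7, are annotated with 1 exon only. Kappa symbols give the family and then a segment number that counts away from the J segments. In a developing B cell the RAG recombinase joins a V gene to a J segment, and the joined gene is spliced to a constant region (Igkc, or an Iglc gene) to make the light chain. V genes are also transcribed before they are joined, as germline transcripts. Pro-B cells mainly rearrange their heavy chain genes, and light chain genes are opened and joined mostly at the following pre-B stage, when interleukin 7 signalling falls. Kappa V genes lie in either orientation upstream of the J segments, so joining deletes the DNA between V and J or inverts it. The deposited values count reads over V gene transcripts and cannot separate germline from joined transcripts. In RNA of a whole culture, fewer cells that transcribe a gene and less RNA per cell cannot be told apart either.

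The libraries held 193.2 M reads (Δ/Δ) and 170.6 M reads (C/C), as recovered from the RPKM values (reads scaled to transcript length and library size). Setdb1 itself measured 12.6 RPKM in Δ/Δ and 17.0 RPKM in C/C, over whole transcripts (the labels do not say which exons were removed). All 11 markers of pro-B cells were measured, with 3 of them lower in Δ/Δ. Markers of pre-B and immature B cells summed to 253 RPKM in Δ/Δ and 1134 RPKM in C/C, and 5 of 6 measured ones were lower by the size rule below. The 10 myeloid markers summed to 225 RPKM in Δ/Δ and 21.9 RPKM in C/C, where Mpo and Elane were listed at 0 (0.434 and 0.214 RPKM in Δ/Δ). Lyz2 alone gave 120 RPKM in Δ/Δ and 9.01 RPKM in C/C. Of 6 measured myeloid markers 4 were higher by the rule, and Csf1r and Itgam were within it. Also higher were 4 of 6 measured dendritic and all 4 measured erythroid and platelet markers. The dendritic markers, which include Irf8, summed to 315 RPKM in Δ/Δ and 350 RPKM in C/C. Of all measured genes 6.66% were lower and 6.28% higher by the rule. Of 8 plasma cell markers, 5 were below C/C in Δ/Δ and 3 above it. Mzb1 and Xbp1 were higher by the rule, while the other 3 measured ones (Sdc1, Irf4 and Tnfrsf13b) were below C/C but within it. Jchain measured 0.705 RPKM in Δ/Δ and 0.661 RPKM in C/C. Xist, which is transcribed from the inactive X chromosome, measured 23.7 RPKM in Δ/Δ and 0.0940 RPKM in C/C, from 5003 and 18 reads. With 1 library per genotype, a difference in sex between the libraries cannot be told apart from the difference in genotype. The part of these differences in the results on V genes was not tested.

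Light chain V transcripts were scarcer in the Δ/Δ library at nearly every gene, with a small group of exceptions. The 100 genes summed to 136.5 RPKM in Δ/Δ and 738 RPKM in C/C, a ratio of 0.185. The median gene was at 0.179 RPKM in Δ/Δ and 2.98 RPKM in C/C. The value was below C/C for 94 genes and above it for 4 (Igkv3-9, Igkv3-3, Igkv4-92 and Igkv10-95), and Igkv1-131 and Igkv8-26 were listed at 0 in both libraries. Of all named genes, 33.1% were below C/C in Δ/Δ, but 14360 of the 36980 had equal values in the libraries, most of them 0. Among genes with at least 20 reads in the libraries together, 84 of 88 light chain V genes were below C/C, beside 56.5% of all 17373 such genes. Another 14 V genes were listed at 0 in Δ/Δ alone, and no gene was listed at 0 in C/C alone.

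A gene is called lower or higher when log2((Δ/Δ + 0.5) / (C/C + 0.5)), in RPKM, was at most -1 or at least 1, a rule of size that takes the place of a test. By this rule 72 of all 100 listed genes fell in Δ/Δ and 1 rose, and the median log2 ratio was -1.82. The rule marked 2.40% of all named genes as lower and 2.37% as higher, and their median was 0.00, since many are listed at or near 0. With a minimum of 1 RPKM in at least 1 library, 74 V genes were measured, of which 64 were lower, 1 was higher and 9 were within the rule. Of all 12556 measured genes, 6.66% passed the rule downwards and 6.28% upwards, and their median was -0.09. Of the 74 genes, 52 reached 1 RPKM in C/C alone, 2 in Δ/Δ alone and 20 in both libraries. The minimum thus fixed that the 52 were below C/C in Δ/Δ, though not that they passed the rule. The counting intervals given below are exact 95% intervals of the ratio of RPKM. They take 2 reads as 1 fragment and cover counting error only. That interval lay below 1 for 85 of the 98 genes with reads, above 1 for 3 and included 1 for 10. The same count was not made over all genes, so it has no background here. For a gene with many reads the interval can exclude 1 at a small difference (Pou2af1, ratio 0.927, interval 0.917 to 0.937).

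**Figure D1:**
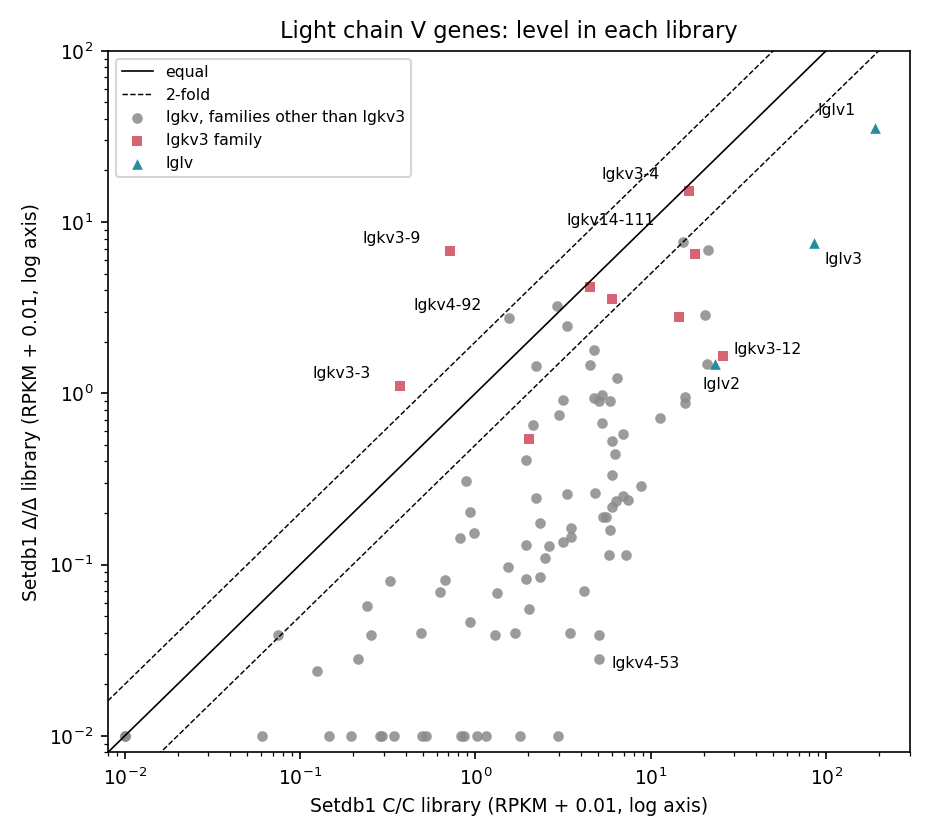
Level of each of the 100 light chain V genes in the Setdb1 Δ/Δ library (vertical axis) and in the Setdb1 C/C library (horizontal axis), both as RPKM + 0.01 on log axes. The solid line marks equal levels and the dashed lines a 2-fold difference. Most points lie far below the solid line, Igkv3-9, Igkv3-3, Igkv4-92 and Igkv10-95 lie above it, and the points along the bottom are the genes listed at 0 in Δ/Δ.

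The 3 lambda V genes ranked 1, 2 and 4 among light chain V genes in C/C and were all lower in Δ/Δ. Iglv1 (ENSMUST00000103746, GRCm38 chromosome 16, 19085017 to 19085500, minus strand, 2 exons) measured 35.5 RPKM in Δ/Δ and 191 RPKM in C/C. These levels rest on 2409 reads in Δ/Δ and 11444 in C/C and give a ratio of 0.186 (interval 0.174 to 0.198). It ranked first of the 100 genes in each library. Iglv3 (chromosome 16, 19241207 to 19241690) measured 7.55 RPKM in Δ/Δ and 85.03 RPKM in C/C, a ratio of 0.0888 (interval 0.0781 to 0.101). Iglv2 (chromosome 16, 19260401 to 19260844) measured 1.47 RPKM in Δ/Δ and 23.3 RPKM in C/C, a ratio of 0.0632 (interval 0.0464 to 0.0844). The intervals of Iglv3 and Iglv2 overlap, and both lie below that of Iglv1. Iglv2 and Iglv1 are close copies, whereas Iglv3 differs from both. Over 348 aligned bases of their transcripts Iglv1 and Iglv2 differ at 10, an identity of 97.1%, so a read of 101 bases can often be placed on either. The last 90 bases of their V exons show this, from GENCODE M21 transcripts on GRCm38, written 5′ to 3′, with capitals in Iglv2 where it differs from Iglv1.
Iglv1 (chr16:19085017-19085106, minus strand): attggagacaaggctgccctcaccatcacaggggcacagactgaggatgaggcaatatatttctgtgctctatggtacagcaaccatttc
Iglv2 (chr16:19260401-19260490, minus strand): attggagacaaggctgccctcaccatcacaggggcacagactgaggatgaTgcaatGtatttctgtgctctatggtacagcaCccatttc
The stretches differ at 3 of 90 bases. Without a mismatch 98.6% of the 101-base windows of Iglv1 and 98.4% of those of Iglv2 occurred in no other immunoglobulin V transcript. With up to 2 mismatches allowed these shares were 45.4% and 35.9%, while for Iglv3 it was 100% (281 windows). Iglv3, whose reads no other V transcript can take at that limit, had a ratio below that of Iglv1.

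Among kappa genes the leading members differed widely in how much was left in Δ/Δ. The Igkv3 family held the gene called higher and several that were not lower. Its 9 genes, all on the plus strand between 204 and 18.4 kb upstream of Igkj1, summed to 42.2 RPKM in Δ/Δ and 88.4 RPKM in C/C, a ratio of 0.477. The 88 other kappa genes summed to 49.8 RPKM in Δ/Δ and 350.3 RPKM in C/C, a ratio of 0.142. Among them 2 small families had ratios of sums near that of Igkv3: Igkv10 (3 genes, 5.09 RPKM in Δ/Δ and 11.4 RPKM in C/C, ratio 0.447) and Igkv14 (4 genes, 8.21 RPKM in Δ/Δ and 18.4 RPKM in C/C, ratio 0.445). All 9 were measured, with 4 lower, 1 higher and 4 within the rule, and a median log2 ratio of -0.68. Of the 10 measured light chain V genes that were not lower, 5 belonged to this family. Of these, Igkv3-9 and Igkv3-3 reached 1 RPKM in Δ/Δ alone. The minimum also removed genes of other families that were not lower. Over all 100 listed genes 27 were within the rule and 1 was higher, of which this family held 4 and 1. With 1 library per genotype the difference between this family and the rest could not be tested.

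The Igkv3 genes are close relatives, and the last 90 bases of the V exon show where they differ. These bases run through the codon of the conserved cysteine into the start of the complementarity-determining region that the join completes, an antigen contact. The stretches are from GENCODE M21 transcripts on GRCm38, 5′ to 3′, in the order of their position, with capitals where a gene differs from Igkv3-12.
Igkv3-12 (chr6:70518760-70518849, plus strand): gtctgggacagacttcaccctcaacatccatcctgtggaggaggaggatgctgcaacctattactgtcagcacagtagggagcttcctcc
Igkv3-10 (chr6:70573141-70573230, plus strand): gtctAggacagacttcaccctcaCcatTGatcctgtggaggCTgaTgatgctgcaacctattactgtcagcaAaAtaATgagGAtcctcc
Igkv3-9 (chr6:70588688-70588777, plus strand): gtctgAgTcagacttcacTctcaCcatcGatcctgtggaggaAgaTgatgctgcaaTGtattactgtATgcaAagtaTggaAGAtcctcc
Igkv3-7 (chr6:70607947-70608036, plus strand): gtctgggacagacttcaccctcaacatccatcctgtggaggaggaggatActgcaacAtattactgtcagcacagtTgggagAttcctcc
Igkv3-5 (chr6:70663806-70663895, plus strand): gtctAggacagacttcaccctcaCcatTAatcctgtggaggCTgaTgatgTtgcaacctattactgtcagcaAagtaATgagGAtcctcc
Igkv3-4 (chr6:70672288-70672377, plus strand): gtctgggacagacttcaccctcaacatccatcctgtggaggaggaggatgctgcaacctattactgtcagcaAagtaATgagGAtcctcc
Igkv3-3 (chr6:70687445-70687534, plus strand): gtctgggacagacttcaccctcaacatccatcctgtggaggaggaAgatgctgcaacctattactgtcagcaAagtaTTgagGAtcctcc
Igkv3-2 (chr6:70698978-70699067, plus strand): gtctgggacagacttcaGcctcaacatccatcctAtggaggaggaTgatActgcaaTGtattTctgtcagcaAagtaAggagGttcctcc
Igkv3-1 (chr6:70704088-70704177, plus strand): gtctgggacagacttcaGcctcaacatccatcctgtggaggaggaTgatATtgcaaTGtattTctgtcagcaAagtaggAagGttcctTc
The differences from Igkv3-12 number 4 in Igkv3-7, 5 in Igkv3-4 and 16 in Igkv3-9, and many fall after the cysteine codon tgt. Over whole transcripts the 36 pairs of Igkv3 genes had identities of 83.9% to 97.5% (median 89.25%).

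Igkv3-9 was the light chain V gene called higher. It lies at chromosome 6, 70588189 to 70588777 (ENSMUST00000103398, plus strand), 134 kb upstream of Igkj1. It measured 6.76 RPKM in Δ/Δ and 0.702 RPKM in C/C, from 469 and 43 reads. The ratio was 9.63 (interval 6.18 to 15.75, log2 ratio 2.59), and its rank among the 100 genes was 6 in Δ/Δ and 80 in C/C. None of its 101-base windows occurred unchanged in another V transcript, and 86.5% had no other V transcript within 2 mismatches. Igkv3-3, 35.03 kb upstream of Igkj1, measured 1.09 RPKM in Δ/Δ and 0.359 RPKM in C/C, from 76 and 22 reads. Its ratio was 3.05 (interval 1.53 to 6.62), but its log2 ratio of 0.89 did not pass the rule, which understates the change of low genes.

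Igkv3-4 and Igkv3-10 had levels in Δ/Δ near those in C/C. Igkv3-4 (chromosome 6, 70671788 to 70672377) measured 15.1 RPKM in Δ/Δ, the second highest light chain V value there, and 16.5 RPKM in C/C, a ratio of 0.916 (interval 0.809 to 1.04). Igkv3-10 measured 4.17 RPKM in Δ/Δ and 4.49 RPKM in C/C, a ratio of 0.928 (interval 0.729 to 1.18). For these genes the counting interval includes 1. Igkv3-5 measured 3.55 RPKM in Δ/Δ and 5.97 RPKM in C/C, a ratio of 0.594 (interval 0.468 to 0.750), within the rule. Igkv3-10 and Igkv3-5 share windows of read length, so the division of reads between them is uncertain.

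The remaining Igkv3 genes were lower. Igkv3-12 (chromosome 6, 70518250 to 70518849), the most abundant kappa V gene in C/C, measured 1.64 RPKM in Δ/Δ and 25.97 RPKM in C/C, a ratio of 0.0633 (interval 0.0475 to 0.0829). Igkv3-7 measured 2.79 RPKM in Δ/Δ and 14.4 RPKM in C/C, a ratio of 0.193 (interval 0.150 to 0.246). With up to 2 mismatches allowed, 31.3% of the windows of Igkv3-12 and 59.3% of those of Igkv3-7 were unshared. Each shared most windows with the other, so the division of reads between them is uncertain. Igkv3-2 measured 6.51 RPKM in Δ/Δ and 17.9 RPKM in C/C, a ratio of 0.363 (interval 0.310 to 0.425). Igkv3-1, the kappa V gene nearest to the J segments, measured 0.533 RPKM in Δ/Δ and 2.01 RPKM in C/C, a ratio of 0.265 (interval 0.149 to 0.453). The family thus spanned log2 ratios from -3.63 to 2.59, and along the locus Igkv3-9 and Igkv3-3 each lie between genes with a ratio below 1.

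**Figure D2:**
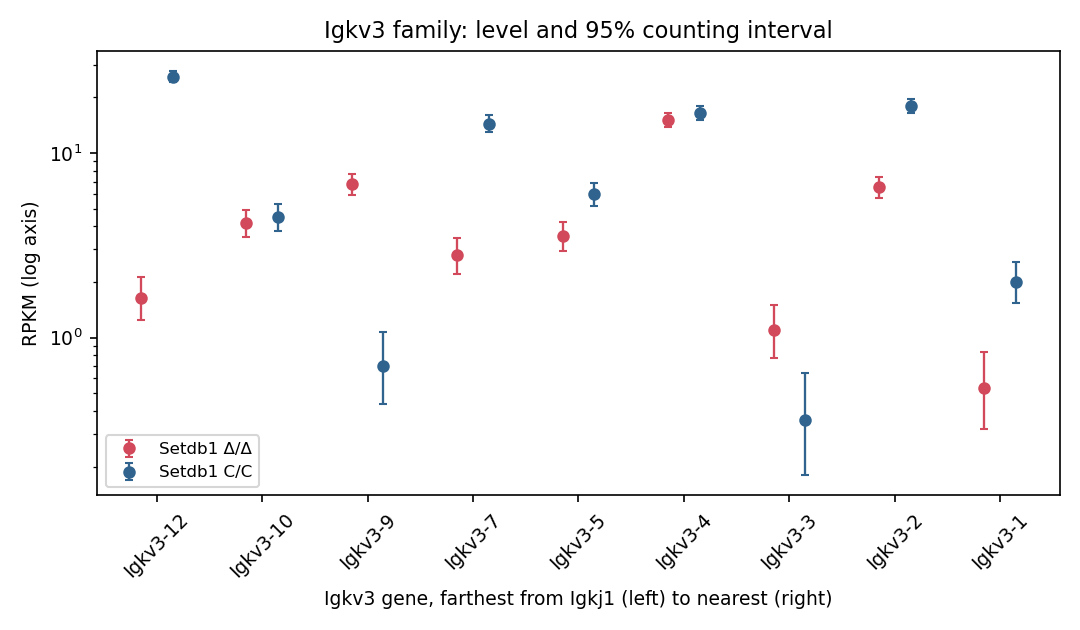
RPKM (log axis) of the 9 Igkv3 genes in the Setdb1 Δ/Δ library (left point of each pair) and the Setdb1 C/C library (right point), ordered from the gene farthest from Igkj1 to the nearest. Bars are exact 95% Poisson intervals of the count. Igkv3-9 and Igkv3-3 are higher in Δ/Δ, the intervals of Igkv3-10 and Igkv3-4 overlap between libraries, and the other genes are lower in Δ/Δ.

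Outside the Igkv3 family 5 measured kappa genes were not lower by the rule. Igkv14-111 (chromosome 6, 68256389 to 68256869), the most abundant member of its family, measured 7.62 RPKM in Δ/Δ and 15.3 RPKM in C/C, a log2 ratio of -0.96 at the edge of the rule. Igkv4-92 measured 2.73 RPKM in Δ/Δ and 1.55 RPKM in C/C, a ratio of 1.76 (interval 1.22 to 2.56). Igkv10-95 measured 3.23 RPKM in Δ/Δ and 2.92 RPKM in C/C, a ratio of 1.105 (interval 0.801 to 1.53). Igkv4-91 measured 1.44 RPKM in Δ/Δ and 2.19 RPKM in C/C, a ratio of 0.657 (interval 0.447 to 0.965). Igkv10-95, Igkv4-92 and Igkv4-91 lie between 2042 and 1953 kb upstream of Igkj1, a stretch that also holds Igkv10-94, which was lower (0.641 RPKM in Δ/Δ and 2.11 RPKM in C/C, ratio 0.304). Igkv4-90, the next gene towards Igkj1, was listed at 0 in Δ/Δ and measured 0.845 RPKM in C/C. With up to 2 mismatches allowed, 36.4% of the windows of Igkv10-94 and 65.8% of those of Igkv10-95 were unshared. Igkv8-21, 407 kb upstream of Igkj1, measured 2.47 RPKM in Δ/Δ and 3.30 RPKM in C/C, a ratio of 0.749 (interval 0.555 to 1.01).

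Of the abundant kappa genes of other families, several kept little RNA in Δ/Δ. Igkv1-135, at the far end of the locus and the second most abundant kappa gene in C/C, measured 6.85 RPKM in Δ/Δ and 21.2 RPKM in C/C, a ratio of 0.323 (interval 0.278 to 0.375). Igkv1-117 measured 1.47 RPKM in Δ/Δ and 20.8 RPKM in C/C, and its close relative Igkv1-110, with which it shares windows of read length, 0.937 RPKM in Δ/Δ and 15.6 RPKM in C/C. Igkv2-109 measured 2.87 RPKM in Δ/Δ and 20.3 RPKM in C/C, a ratio of 0.141 (interval 0.113 to 0.175). Igkv1-88 measured 0.872 RPKM in Δ/Δ and 15.6 RPKM in C/C, a ratio of 0.0559 (interval 0.0374 to 0.0806). Igkv1-88 and Igkv3-4, at similar levels in C/C, thus differed widely in Δ/Δ, where Igkv1-88 was 17.9-fold lower than in C/C.

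Several Igkv4 genes were nearly without reads in Δ/Δ. Igkv4-57 (chromosome 6, 69575975 to 69576500, minus strand) measured 0.103 RPKM in Δ/Δ and 7.199 RPKM in C/C, from 7 and 432 reads, and had the lowest log2 ratio of all light chain V genes, -3.67. Igkv4-50 measured 0.279 RPKM in Δ/Δ and 8.81 RPKM in C/C (log2 ratio -3.58). Igkv4-53 had 1 read in Δ/Δ and 251 reads in C/C, a ratio of 0.00357 with an interval that reaches up to 0.0334. Of the measured genes listed at 0 in Δ/Δ, Igkv1-122 measured 2.95 RPKM in C/C, Igkv4-69 1.78 RPKM, Igkv4-61 1.14 RPKM and Igkv4-70 1.01 RPKM. Against a floor of 3 reads in the Δ/Δ library, Igkv1-122 was at least 68.35-fold lower and Igkv4-69 at least 40.03-fold lower. With up to 2 mismatches allowed, unshared windows made up 1.075% of Igkv4-70, 22.8% of Igkv4-61, 53.65% of Igkv4-53, 56.75% of Igkv4-57 and 64.5% of Igkv4-69. For Igkv1-122 the share was 79.9% and for Igkv4-50 it was 100%. Reads of the genes with low shares may have been placed on relatives.

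By family, the largest group was Igkv4, whose 26 genes summed to 7.69 RPKM in Δ/Δ and 69.3 RPKM in C/C, a ratio of 0.111. Over all 26 listed members the median log2 ratio was -1.76, and 22 were lower and 0 higher by the rule. The 5 Igkv5 genes had the lowest ratio of sums among families of 3 or more genes, 0.0323, at 0.514 RPKM in Δ/Δ and 15.9 RPKM in C/C. Igkv12 (6 genes, 1.42 RPKM in Δ/Δ and 21.3 RPKM in C/C, ratio 0.0667) and Igkv6 (9 genes, 2.38 RPKM in Δ/Δ and 31.4 RPKM in C/C, ratio 0.0757) were close to it. Counted over all listed members, without the minimum of 1 RPKM, the rule marked as lower 6 of 10 genes of Igkv1, 3 of 3 of Igkv2, 4 of 5 of Igkv5, 8 of 9 of Igkv6, 3 of 4 of Igkv9 and 5 of 6 of Igkv12, and none of them as higher.

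The other families were small or mixed. Igkv8 had 6 lower genes of 9 listed, with sums of 5.78 RPKM in Δ/Δ and 29.0 RPKM in C/C. In Igkv10, 2 of 3 listed genes were lower, led by Igkv10-96 (1.22 RPKM in Δ/Δ and 6.37 RPKM in C/C). In Igkv14, 2 of 4 listed genes were lower, among them Igkv14-126 (0.396 RPKM in Δ/Δ and 1.93 RPKM in C/C). The families Igkv15, Igkv16 and Igkv17 held 4 listed genes, all lower, among them Igkv17-127 (0.228 RPKM in Δ/Δ and 7.37 RPKM in C/C). No member of Igkv7, Igkv11, Igkv13 or Igkv18 reached 1 RPKM, and their leading genes stayed within the rule. Igkv18-36, for example, was listed at 0 in Δ/Δ and had 3 reads in C/C, so a difference was not detectable at this depth.

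**Figure D3:**
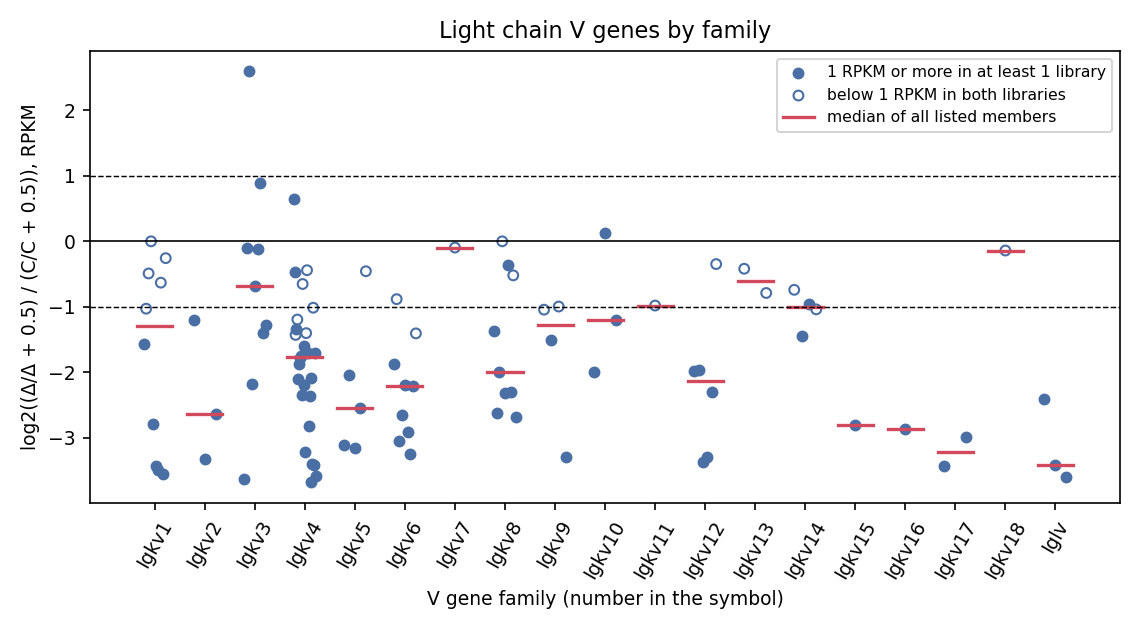
Log2 ratio of Δ/Δ over C/C (RPKM + 0.5) for every light chain V gene with a row, by family. Filled points reached 1 RPKM in at least 1 library, open points did not, red bars are medians of all listed members, and dashed lines mark the size rule. Medians lie below 0 in every family, and the Igkv3 family holds the highest point, Igkv3-9.

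The kappa V genes span 3149 kb of chromosome 6 (67555497 to 70704177), which was divided into 3 stretches of equal length. Along this span there was no steady change of the ratio with distance. In the distal stretch 25 genes summed to 25.8 RPKM in Δ/Δ and 157 RPKM in C/C, a ratio of 0.164, and in the middle stretch 31 genes summed to 14.6 RPKM in Δ/Δ and 92.5 RPKM in C/C, a ratio of 0.158. In the proximal stretch 41 genes summed to 51.5 RPKM in Δ/Δ and 189 RPKM in C/C, a ratio of 0.273. Without the Igkv3 genes the proximal stretch had a ratio of 0.0930, below both other stretches. Its 32 other genes summed to 9.38 RPKM in Δ/Δ and 101 RPKM in C/C. The genes farthest from the J segments included Igkv2-137 (1.77 RPKM in Δ/Δ and 4.74 RPKM in C/C) and Igkv9-124 (0.739 RPKM in Δ/Δ and 3.001 RPKM in C/C). Across the 85 kappa genes with at least 20 reads in the libraries together, Spearman's rho between log2 ratio and distance to Igkj1 was -0.00387. Without the Igkv3 family it was 0.191 (76 genes). These genes share the same 2 libraries and are not replicates.

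The result by orientation depended on how genes were weighted and filtered. The 37 kappa genes on the strand of Igkc, which join by deletion, summed to 70.8 RPKM in Δ/Δ and 253 RPKM in C/C, a ratio of 0.279. The 60 genes on the opposite strand, which join by inversion, summed to 21.1 RPKM in Δ/Δ and 185 RPKM in C/C, a ratio of 0.114. All Igkv3 genes belong to the first set. Over all listed genes 23 of 37 on the strand of Igkc and 46 of 60 on the opposite strand were lower, with median log2 ratios of -1.28 and -1.92. With the minimum of 1 RPKM, which 13 of 27 measured genes on the strand of Igkc and 39 of 44 on the opposite strand passed in C/C alone, the medians were -2.18 and -2.20. With recovered reads over genes of at least 20 reads they were -2.71 on the strand of Igkc and -4.27 on the opposite strand. Without the Igkv3 family the order turned, at -2.83 on the strand of Igkc and -2.20 on the opposite strand (measured genes). No order between the orientations is therefore read from the medians. In the proximal stretch the 28 genes of the opposite strand had a ratio of sums of 0.0992, from 9.22 RPKM in Δ/Δ and 92.9 RPKM in C/C.

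**Figure D4:**
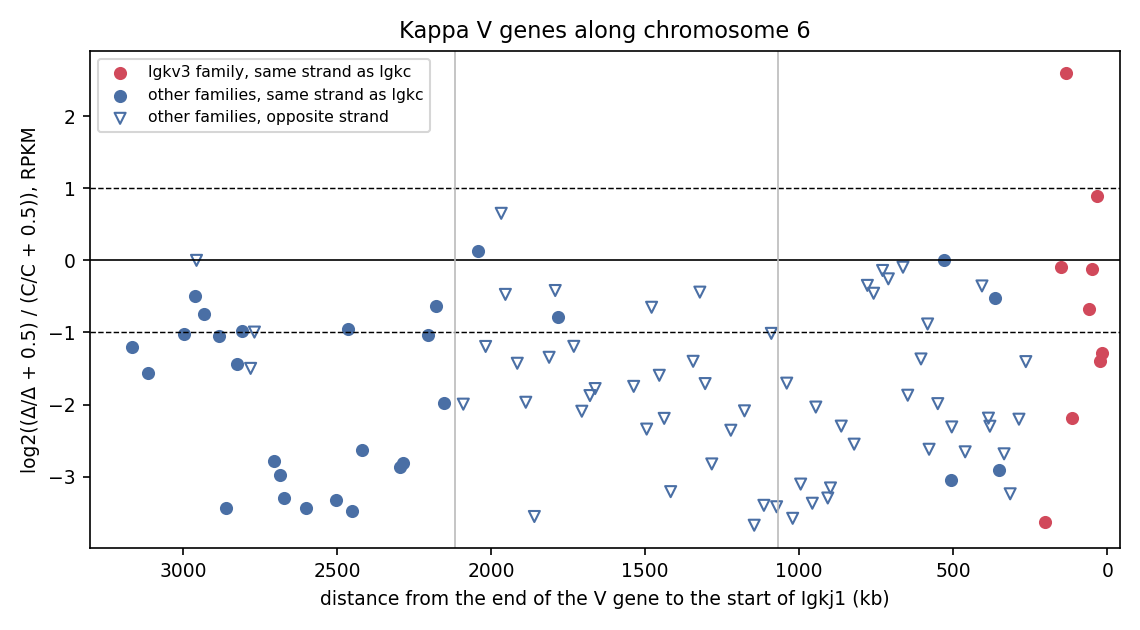
Log2 ratio of Δ/Δ over C/C (RPKM + 0.5) for the 97 kappa V genes against their distance upstream of Igkj1 in kb. Filled circles lie on the strand of Igkc, open triangles on the opposite strand, and red marks the Igkv3 family. Grey lines divide the span into 3 stretches and dashed lines mark the size rule. Values below -1 occur along the whole span, and the Igkv3 genes, within 204 kb of Igkj1, run from -3.63 to 2.59.

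The summed kappa signal was held by fewer genes in Δ/Δ. The 5 most abundant kappa genes made up 46.6% of the kappa sum in Δ/Δ and 24.2% in C/C, and the 10 most abundant 64.7% in Δ/Δ and 41.9% in C/C. The leading 5 in Δ/Δ were Igkv3-4, Igkv14-111, Igkv1-135, Igkv3-9 and Igkv3-2. In C/C they were Igkv3-12, Igkv1-135, Igkv1-117, Igkv2-109 and Igkv3-2. Igkv3 genes gave 45.9% of the kappa sum in Δ/Δ and 20.1% in C/C. Lambda genes gave 32.6% of the sum over all light chain V genes in Δ/Δ and 40.6% in C/C. Across the 85 kappa genes with at least 20 reads, Spearman's rho between the levels in Δ/Δ and in C/C was 0.571, which describes these 2 libraries only.

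Close copies limit single genes more than the group. Of the 100 genes 60 shared no 101-base window with another V gene, and 75 had at least 90% such windows. Over all 75, 53 were lower and 1 higher by the rule (median log2 ratio -1.56). When windows within 2 mismatches counted as shared, 32 genes had at least 90% unshared windows, and of 19 measured ones 16 were lower and 0 higher. Most of these 19 reached 1 RPKM in C/C alone and so had to be below C/C in Δ/Δ, which limits this count. Igkv14-111, Igkv4-92 and Igkv4-91, 3 of the genes not lower, had 100% unshared windows at 2 mismatches, whereas Igkv3-10 had 45.3%. The least separable gene without mismatches was Igkv8-16, with 33.2% unshared windows.

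The constant regions to which these V genes are joined were lower as well. Igkc, the kappa constant region, measured 219 RPKM in Δ/Δ and 904 RPKM in C/C, a ratio of 0.242 (interval 0.237 to 0.247), beside 0.210 for the sum of the kappa V genes. Iglc2, a lambda constant region, measured 5.56 RPKM in Δ/Δ and 71.1 RPKM in C/C, a ratio of 0.0782 (interval 0.0696 to 0.0876), between the ratios of Iglv3 and Iglv2. Iglc2 has a near-identical copy, Iglc3, with which its reads can be confused. Of the kappa J segments, Igkj1 measured 86.5 RPKM in Δ/Δ and 202 RPKM in C/C, and Igkj5 22.3 RPKM in Δ/Δ and 157 RPKM in C/C. Igkj2 (18.3 RPKM in Δ/Δ and 79.7 RPKM in C/C) and Igkj4 (19.6 RPKM in Δ/Δ and 61.2 RPKM in C/C) were lower too. Igkj3, which is not used for functional joins in mice, measured 2.73 RPKM in Δ/Δ and 2.28 RPKM in C/C, from 19 and 14 reads. J segments are shorter than a read, so their RPKM are not comparable with those of V or C genes. Of the 14 J and C genes on the list 7 had a row, and 6 of these were lower and 0 higher, beside 6.66% and 6.28% of all measured genes.

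Genes that control or carry out light chain rearrangement and transcription were lower in part. The list holds 27 measured genes with a median log2 ratio of -0.60, and the rule marked 7 of them as lower and 0 as higher. Of all 12556 measured genes it marked 6.66% as lower and 6.28% as higher, and their median was -0.09. Brwd1, a chromatin reader that opens the kappa J region, measured 0.992 RPKM in Δ/Δ and 6.10 RPKM in C/C, a ratio of 0.163 (interval 0.151 to 0.176). Ikzf3 (Aiolos), a factor of the pre-B stage, measured 13.5 RPKM in Δ/Δ and 63.7 RPKM in C/C. Rag1, a subunit of the recombinase, measured 6.64 RPKM in Δ/Δ and 27.3 RPKM in C/C, whereas its partner Rag2 measured 5.39 RPKM in Δ/Δ and 5.88 RPKM in C/C. Spib, an ETS factor that binds the kappa enhancer, measured 109 RPKM in Δ/Δ and 294 RPKM in C/C. The pre-B receptor kinase gene Syk (70.2 RPKM in Δ/Δ and 182 RPKM in C/C), Id3 (26.6 RPKM in Δ/Δ and 66.7 RPKM in C/C), an inhibitor of E proteins, and Pax5 (97.5 RPKM in Δ/Δ and 201 RPKM in C/C) were the other lower genes. Pax5, the commitment factor of B cells, lay at the edge of the rule with a log2 ratio of -1.04, and was within it under each of 3 rescalings of the libraries (-0.97 to -0.94).

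Other regulators stayed within the rule. Irf4, a factor that activates the kappa enhancers, measured 59.1 RPKM in Δ/Δ and 106 RPKM in C/C (log2 ratio -0.83), and Irf8 229 RPKM in Δ/Δ and 290.1 RPKM in C/C. The E2A gene Tcf3 measured 216 RPKM in Δ/Δ and 375 RPKM in C/C. Among genes for proteins that act at the octamer of V gene promoters, Pou2f2 (OCT2) measured 4.30 RPKM in Δ/Δ and 8.54 RPKM in C/C (log2 ratio -0.91). Pou2f1 (OCT1) measured 11.0 RPKM in Δ/Δ and 14.7 RPKM in C/C, and Pou2af1 (OCA-B) 280.4 RPKM in Δ/Δ and 302 RPKM in C/C. Dntt, the terminal transferase of pro-B cells, measured 256 RPKM in Δ/Δ and 142 RPKM in C/C (log2 ratio 0.85). The other members within the rule were Spi1, Ebf1, Tcf12, Foxo1, Ikzf1, Blnk, Btk, Id2, Mef2c, Ctcf, Myc and Ccnd3, with log2 ratios from -0.74 (Ebf1, Ccnd3) to 0.36 (Btk).

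The surrogate light chain, which stands in for kappa or lambda chains before they are made, was not lower. Vpreb1 measured 893 RPKM in Δ/Δ and 745 RPKM in C/C, and Igll1 766 RPKM in Δ/Δ and 785 RPKM in C/C. Both were within the rule. Vpreb3, a gene of the same list but not a chain of the surrogate, measured 741 RPKM in Δ/Δ and 814 RPKM in C/C, also within it. The surrogate chain gene Vpreb2 was higher, at 894 RPKM in Δ/Δ and 421 RPKM in C/C. Vpreb1 and Vpreb2 are near-identical genes, so the division of reads between them is uncertain. The other pre-B receptor genes on the list were lower, with Ighm, the heavy chain constant region, at 1143 RPKM in Δ/Δ and 3274 RPKM in C/C. Cd79a measured 153 RPKM in Δ/Δ and 548 RPKM in C/C, and Cd79b 651 RPKM in Δ/Δ and 1372 RPKM in C/C. Cd79b (log2 ratio -1.08) was within the rule when the median of all measured genes was set to 0 (-0.98). Both encode signalling chains of the receptor. In this list of 7 genes 3 were lower and 1 higher, beside 6.66% and 6.28% of all measured genes.

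**Figure D5:**
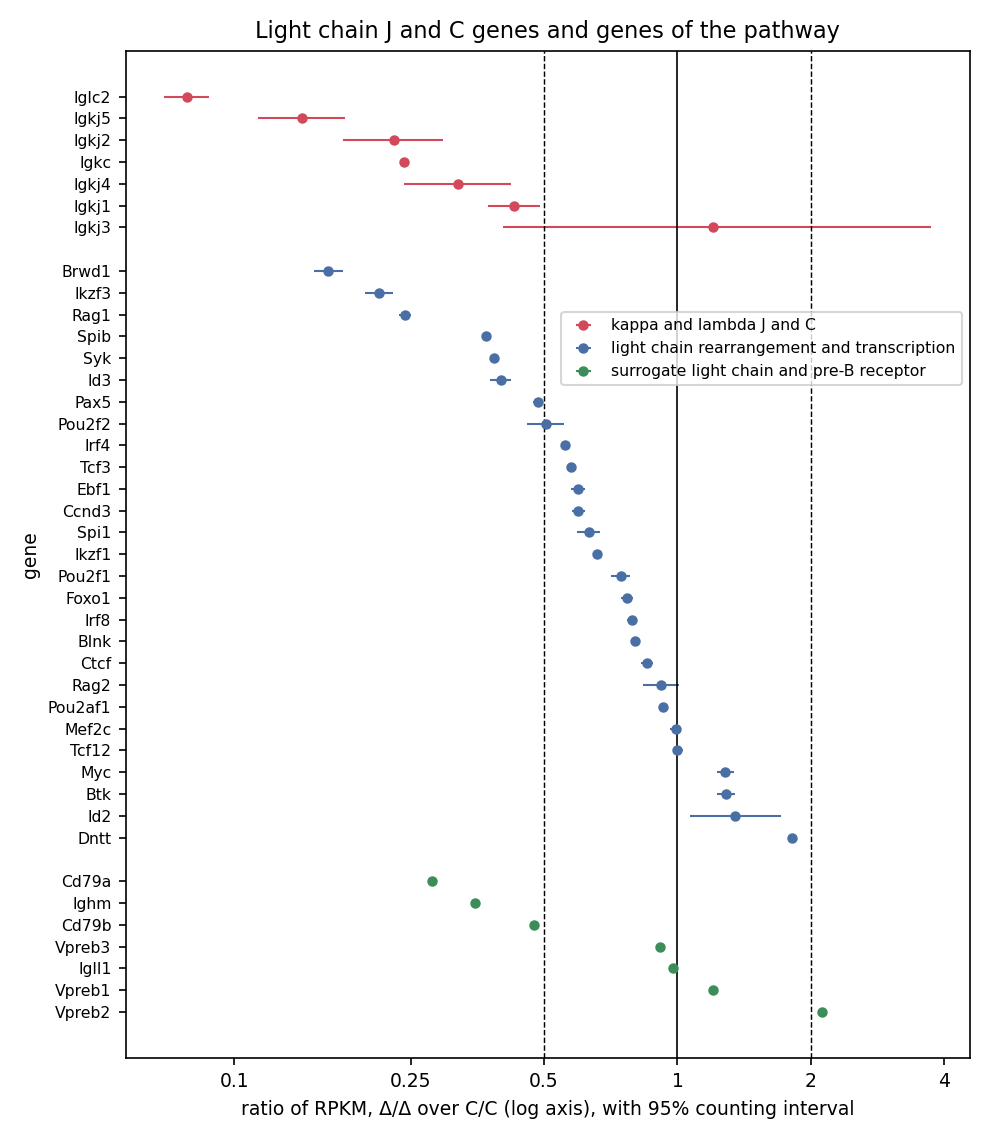
Ratio of RPKM, Δ/Δ over C/C, on a log axis for the light chain J and C genes (red), genes of light chain rearrangement and transcription (blue) and genes of the surrogate light chain and pre-B receptor (green). Bars are exact 95% counting intervals, the solid line marks equal levels and dashed lines a ratio of 0.5 or 2. Iglc2, Igkj5 and Brwd1 have ratios below 0.2, and Vpreb2 is the gene beyond 2.

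Most heavy chain V genes were lower in Δ/Δ too. The 104 heavy chain V genes with a row summed to 68.4 RPKM in Δ/Δ and 500.2 RPKM in C/C, a ratio of 0.137, and by the rule 78 of all 104 were lower and 2 higher. Over all listed genes the median log2 ratio was -1.82 for light chain V genes and -2.10 for heavy chain V genes. Over measured genes, most of which passed the minimum in C/C alone in either set, both medians were -2.25. A difference between the chains could not be tested with 1 library per genotype. Of the kappa V pseudogenes 4 had a row, and Igkv11-106, named after its value was seen, measured 11.5 RPKM in Δ/Δ and 27.5 RPKM in C/C, while the other 3 were listed at 0 in both libraries.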

How the data were processed

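The authors deposited 1 table of RPKM values, rounded to 3 decimals, with 93615 Ensembl transcripts and 1 column per library. Its columns headed Del and Wt were read as Δ/Δ and C/C. Per the labels' protocols, RNA was freed of ribosomal RNA, and libraries were sequenced as 101 bp read pairs. Per the submitters' processing notes, TopHat2 2.0.9 and bedtools were used with mm9 and mm10, in roles not given. How reads with several placements were treated is not given in the sources used here, nor is a strand setting.

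Transcripts were matched to GENCODE M21 (89571 matched), and each gene was represented by its most abundant transcript over both libraries. Depth was taken as the value at which RPKM times transcript length gave whole reads. At that depth 95.4% of low values in Δ/Δ and 96.2% in C/C lay within 0.1 of a whole read. For V genes the coding length gave whole reads (94.7% in Δ/Δ and 93.1% in C/C of values under 60 reads), while the full exonic length gave 59.6% and 75.0%, so V gene reads use coding length. Transcripts with 2 reads outnumbered those with 1 read, so 2 reads were taken as 1 fragment. Intervals are exact binomial intervals of a ratio of 2 Poisson rates. The steps were tested on simulated data.

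The comparison used a pseudocount of 0.5 RPKM, which understates the change of low genes. Members and lists were chosen with earlier results of these data known. Named genes are all lambda genes, the leader of each kappa family, the 10 most abundant kappa genes, the 6 highest and 6 lowest ratios, the 5 measured genes at each end of the locus, measured genes listed at 0, genes not lower, and the measured genes of the 3 pathway lists. Genes outside that rule (Igkv4-53, Igkv4-90, Igkv1-131, Igkv8-26, Igkv2-112 and Igkv10-94) were named after their values were seen. Python 3.11.15, pandas 2.3.3, SciPy 1.17.1, Biopython 1.88 and matplotlib 3.10.9 were used.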

Additional observations from a re-analysis of the deposited data

How the results depend on the processing

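No paired analysis was possible because each genotype had 1 library. In every alternative run more light chain V genes were lower than higher in Δ/Δ, and no median past the rule changed sign. Single genes, 49 light chain V genes and 41 of the pathway lists, were followed under every alternative except those on shared windows and on leaving out Igkv3. None of those past the rule changed sign, while Igll1 and Mef2c, both within it, did. For most alternatives the kept sign was fixed in advance and says nothing about robustness. Filters on low values and the 4-fold rule leave the log2 ratio of a single gene as it was, and a pseudocount cannot change its sign. The rescalings moved log2 ratios too little to turn a gene past the rule. Igll1, for example, was at -0.04 as reported and at 0.06 with the median of all measured genes set to 0. The number lower was 64 of 74 genes as reported. It was 33 of 37 with a filter of 5 RPKM, and 16 of 19, with 0 higher, over genes with at least 90% unshared windows at 2 mismatches, an alternative chosen after seeing the data. These 2 counts cover fewer genes by construction, and most of their genes reached the minimum in C/C alone. The number higher was 2 with a pseudocount of 0.1 RPKM and with recovered reads over genes of at least 20 reads, where Igkv3-3 joined Igkv3-9 (log2 ratio 1.38 and 1.61). With recovered reads 79 of 88 genes were lower, against 12.0% of all genes with as many reads, and 11.4% of those were higher. The median log2 ratio was -2.25 as reported and between -3.78 and -1.71 in the alternatives. The Igkv3 median passed the rule with a filter of 5 RPKM (-1.04) and over genes with at least 90% unshared windows (-1.28). The Igkv10 median did not pass it with a pseudocount of 1 RPKM (-0.92), nor a 4-fold rule (-1.19), and the middle stretch of the locus missed a 4-fold rule (-1.99). Scaling to a median of 0 or a common sum left 63 of 73 genes lower. Igkv14-111 was just lower with recovered reads, and Igkv3-1 was within the rule with a pseudocount of 1 RPKM (-0.97). Igkv2-112 had a second transcript with 0.824 RPKM in Δ/Δ and 2.11 RPKM in C/C, beside 0.242 RPKM in Δ/Δ and 6.96 RPKM in C/C for the one used. Depth limits the low genes most: Igkv18-36, with 3 reads in C/C, had an interval that includes 1.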
